A study of Mus musculus with 8 samples.

Results

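The genes described here are 10 genes of the NRF2 pathway and of glutathione-based defence: Nfe2l2, Gclc, Gclm, Slc7a11, Gsr, Gpx2, Txnrd1, Srxn1, Nqo1 and Hmox1. They were taken by gene name from the non-control probes of a mouse expression array, where 16 probes carry 1 of these names, out of 56593 probes in all; 12 of the 16 were detected (well above background) in each mouse of some group, and with the brightest of these per gene all 10 genes entered the test, out of 25830 genes. The study profiled whole lungs of bone marrow chimeric mice after diphtheria toxin, to look for growth factors of repair and biomarkers in acute lung injury. All mice were male, 22 weeks old, had received marrow from a donor, and had been given the toxin 72 hours before the lungs were taken. LL mice were LysM-DTR recipients of LysM-DTR marrow, WL mice LysM-DTR recipients of wild-type marrow, LW mice wild-type recipients of LysM-DTR marrow, and WW mice wild-type recipients of wild-type marrow, with 2 mice and 2 arrays in each group. In LysM-DTR mice the lysozyme M promoter drives the receptor for the toxin, which is active in macrophages, monocytes, neutrophils and, in the lung, alveolar type 2 cells. No group went without toxin, and cells that a recipient keeps after marrow transfer are part of every lung.

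NRF2, the product of Nfe2l2, is a transcription factor that is held in the cytoplasm and marked for breakdown by KEAP1 and the CUL3 ubiquitin ligase. When oxidants or electrophiles modify KEAP1, NRF2 escapes, pairs with a small MAF protein and binds antioxidant response elements, from which BACH1 is displaced. Its targets make glutathione, recycle glutathione and thioredoxin, detoxify quinones and break down heme, and in the lung they are known for limiting oxidant injury of the epithelium. Because much of NRF2 control acts on the protein, the Nfe2l2 transcript need not follow the activity of the factor.

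The antioxidant response element has the core TGACNNNGC or TGAGNNNGC. Both were searched on both strands of the RefSeq promoter windows of GRCm38.p6, which run from 250 bases before to 50 bases after a start site. Windows were given for 7 of the 10 genes (9 windows, 3 of them for Txnrd1), and not for Hmox1, Gclc and Gsr. A core lay in the windows of 5 genes, that is in 5 of 9 windows, against 27.8% of all 32851 windows. The matches before the start site are shown because this core is the letters that NRF2 is known to bind; the strand is that of the gene, 5′ to 3′, capitals mark the core, and a core that lies on the other strand appears as its reverse complement.
Srxn1, chr2:152105469-152105497: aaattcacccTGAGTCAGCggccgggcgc
Srxn1, chr2:152105356-152105384: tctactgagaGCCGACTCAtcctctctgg
Gclm, chr3:122245413-122245441: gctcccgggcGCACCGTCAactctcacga
Txnrd1, chr10:82859104-82859132: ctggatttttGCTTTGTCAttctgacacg
Slc7a11, chr3:50443692-50443720: taatgttggcGCTTTCTCAagctggagtt
Nfe2l2, chr2:75704885-75704913: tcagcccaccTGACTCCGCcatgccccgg
The first Srxn1 match begins 45 bases before the start site and overlaps the AP-1 motif TGACTCA, read on the other strand, which 5.2% of all windows hold; no other match shown overlaps it. Nqo1 and Gpx2 had neither core in their windows, which says only that these letters are not there. A match is a description of letters, and binding of NRF2 was not measured.

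Levels are log2 processed intensities minus the 75th percentile of the array, so a level of 0 is the 75th percentile and a difference of 1 is a doubling of intensity. Levels of different genes come from different probes and are not compared. The 75th percentile ran from 208.6 to 324.4 intensity units, 66.3 to 72.3% of non-control spots were well above background, and no spot was saturated. The LL label was checked on Lyz2, the lysozyme M gene, which passed as lower in LL than in WW (-4.27, SE 0.408, limma adjusted p = 0.0121). The LL mice read 4.67 and 4.94, and the other 6 between 7.36 (WL replicate 2) and 9.09. Lyz2 could not tell the labels of the other groups apart: WL replicate 1 read 8.70, LW 8.99 and 8.84, and WW 9.05 and 9.09. Hbegf, the mouse counterpart of the gene for the toxin's receptor, read 4.12 and 4.001 in LL and 4.09 in WL replicate 2. It read between 2.18 and 2.39 on the other 5 arrays. These include WL replicate 1 and both LW mice, which carry LysM-DTR cells, so Hbegf does not check the labels. It is also among the alveolar transitional state markers summed below. Whether its probe detects the transgene was not tested. The tissue label was checked on lung markers: the alveolar type 1 cell gene Ager was between 7.90 and 8.63 on the 8 arrays, and Sftpc, of alveolar type 2 cells, between 7.41 and 9.81. The WL mice were unlike each other. Across all genes (which are not independent replicates) Pearson's r was 0.96 between them and 0.99 within each of LL, LW and WW, so WL is given by mouse. All arrays lay on 1 slide; LL and WL filled its first row and LW and WW its second, so recipient genotype and row cannot be told apart. In whole lung, fewer cells of a type and less RNA per cell cannot be told apart either.

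Of the 10 genes, 8 (all but Gclc and Gsr) were higher in both LL mice than in either WW mouse, against 37% of all genes tested (none was lower without overlap, against 32.4%), and all 10 were higher in WL replicate 2 than in either WW mouse, against 40.3%. In LL replicate 1 the difference from the WW mean was largest for Nqo1 (1.09), a quinone reductase, in LL replicate 2 for Slc7a11 (2.09), the cystine importer, and in WL replicate 2 for Hmox1 (2.57), heme oxygenase. In WL replicate 1 and in both LW mice every gene lay within 0.52 of the WW mean. None of the 10 passed the test in any of 7 comparisons, in each of which 3.13% of all genes or fewer passed. The model takes its error from all 8 arrays, the WL pair included.

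**Figure D1:**
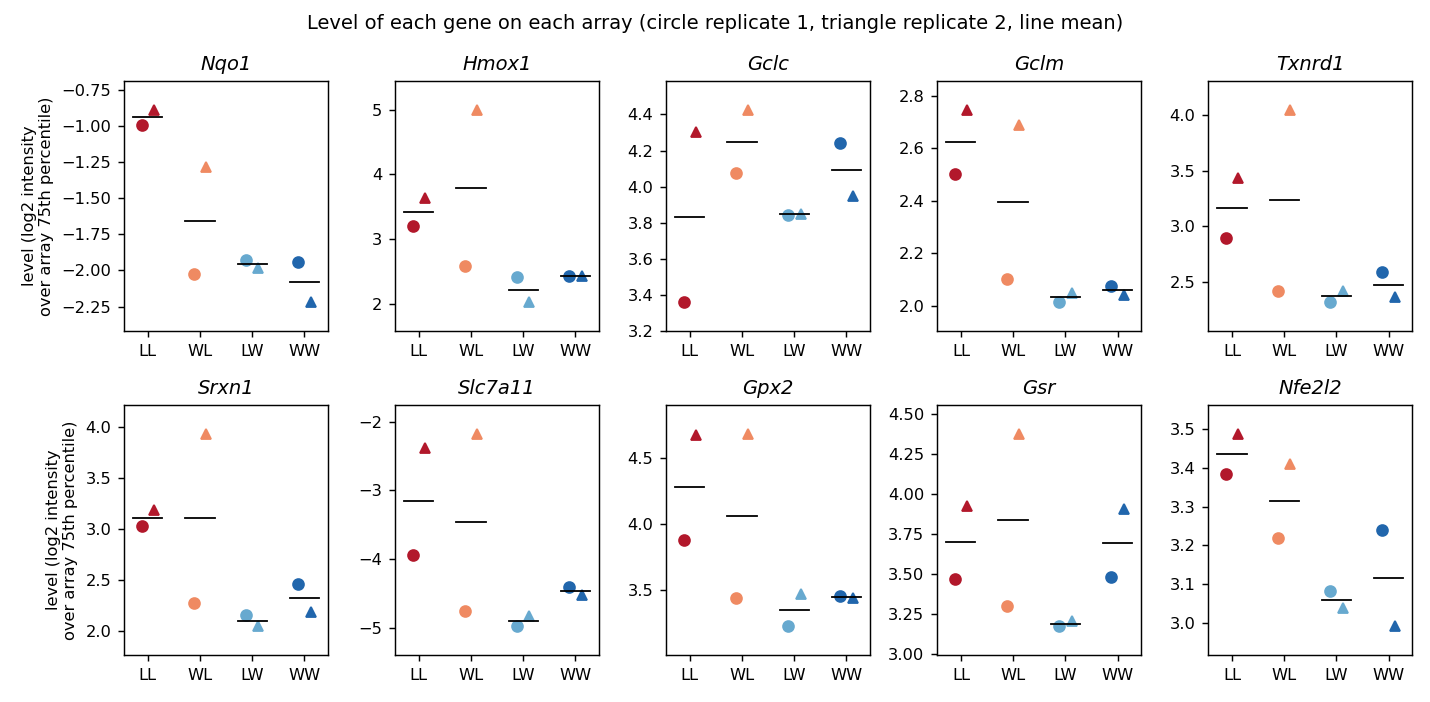
Level of each of the 10 genes (vertical axis, log2 intensity over the array's 75th percentile, a different range in each panel) in the 4 groups (horizontal axis); a circle is replicate 1, a triangle replicate 2 and the line their mean. WL replicate 2 has the highest level of Hmox1, Gclc, Txnrd1, Srxn1, Slc7a11, Gpx2 and Gsr, and LL replicate 2 that of Nqo1, Gclm and Nfe2l2.

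Nfe2l2 codes for NRF2 itself. Its probe (chromosome 2, 75513771 to 75513830, mm9, minus strand) read 3.38 and 3.49 in LL, 3.22 and 3.41 in WL, 3.08 and 3.04 in LW, and 3.24 and 2.99 in WW. Both LL mice and WL replicate 2 were above both WW mice, and LW lay within the WW range. The difference of LL from WW was 0.32 (SE 0.155, limma adjusted p = 0.249). A dimmer Nfe2l2 probe, for another transcript model (75529291 to 75529350), read 0.59 and 1.43 in LL, -0.75 and 0.84 in WL, -0.61 and -0.05 in LW, and -0.36 and -0.02 in WW. There the LL difference was 1.20 (SE 0.552, limma adjusted p = 0.235 over all probes), so the probes of this gene gave unlike sizes and neither passed.

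The next group supplies glutathione. Slc7a11 codes for the xCT subunit of the exchanger that brings in cystine, from which the cysteine of glutathione is made. On its brightest probe (chromosome 3, 50176047 to 50176106) it read -3.95 and -2.38 in LL, -4.76 and -2.17 in WL, -4.98 and -4.83 in LW, and -4.40 and -4.53 in WW. It was dim throughout and not well above background on either LW array. LL replicate 2 and WL replicate 2 stood clear of the other arrays, and LL replicate 1 lay between them and WW. The LL difference from WW was 1.30 (SE 0.869, adjusted p = 0.372, limma), and LL against LW did not pass either (adjusted p = 0.252, limma). With LW set at the lowest level well above background on its arrays, the level was at least 2.66-fold higher in LL with this processing. LL replicate 2 carried this lower limit: it was 1.55-fold for LL replicate 1 alone and 4.58-fold for LL replicate 2 alone. Under other processing settings the difference of LL from LW was as low as 0.47 for Slc7a11. Of its other probes, 1 was above background on no array, 1 on WL replicate 2 alone, and 1 on LL replicate 2, WL replicate 2 and WW replicate 2.

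Gclc and Gclm code for the catalytic and the modifier subunit of glutamate-cysteine ligase, the rate-limiting enzyme of glutathione synthesis. The pair did not behave alike. Gclc (chromosome 9, 77641296 to 77641355) read 3.36 and 4.30 in LL, 4.07 and 4.43 in WL, 3.84 and 3.85 in LW, and 4.24 and 3.95 in WW. LL replicate 1 was the lowest and LL replicate 2 the second highest of the 8, giving an LL mean of 3.83 ± 0.67 (SD, n = 2 mice), and the difference from WW was -0.26 (SE 0.324, adjusted p = 0.621, limma). Without LL replicate 1 the difference was 0.21, the other way. Gclm (chromosome 3, 121967737 to 121967796) read 2.50 and 2.75 in LL, 2.10 and 2.69 in WL, 2.01 and 2.05 in LW, and 2.08 and 2.04 in WW. Its LL mice and WL replicate 2 lay above the other 5 arrays, which spanned less than the gap to them. The difference from WW was 0.57 in LL (SE 0.22, adjusted p = 0.188, limma) and 0.34 in WL (SE 0.22).

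Gsr and Gpx2 use the glutathione that is made. Gsr, glutathione reductase, returns the oxidised form to the reduced one. Its probe (chromosome 8, 34808488 to 34808547) read 3.47 and 3.93 in LL, 3.30 and 4.38 in WL, 3.18 and 3.21 in LW, and 3.48 and 3.91 in WW. LL and WW overlapped, with a difference of 0.0034 (SE 0.376, adjusted p = 0.997, limma). Both LW mice were the lowest arrays, at a difference of -0.50 from WW (SE 0.376, adjusted p = 0.9999, limma).

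Gpx2 is a selenium-dependent glutathione peroxidase of epithelia. Its probe (chromosome 12, 77893402 to 77893461) read 3.88 and 4.68 in LL, 3.44 and 4.69 in WL, 3.22 and 3.47 in LW, and 3.45 and 3.44 in WW. LL and WW did not overlap, and WL replicate 1 sat with WW while WL replicate 2 sat with LL replicate 2. The difference of LL from WW was 0.83 (SE 0.445, adjusted p = 0.284, limma).

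Txnrd1 and Srxn1 serve the thioredoxin and peroxiredoxin arm. Txnrd1, the cytosolic thioredoxin reductase, read 2.90 and 3.44 in LL, 2.42 and 4.05 in WL, 2.32 and 2.42 in LW, and 2.59 and 2.37 in WW on its brighter probe (chromosome 10, 82360230 to 82360289). A second probe (82338379 to 82338438) placed the arrays in a like way, with 1.89 and 2.37 in LL, 1.14 and 2.43 in WL, 1.06 and 1.11 in LW, and 1.19 and 1.23 in WW. On both probes LL and WL replicate 2 were above the other 5 arrays. The LL difference was 0.69 (SE 0.508, adjusted p = 0.413) on the first and 0.92 (SE 0.408, adjusted p = 0.226 over all probes) on the second, both by limma.

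Srxn1, sulfiredoxin, repairs peroxiredoxins that have been over-oxidised, and is the gene with the core that overlaps AP-1 shown above. Its probe (chromosome 2, 151937009 to 151937068) read 3.04 and 3.19 in LL, 2.28 and 3.94 in WL, 2.16 and 2.05 in LW, and 2.46 and 2.19 in WW. The LL mice lay 0.15 apart, whereas the WL mice lay 1.66 apart, a gap reached by 5.57% of all genes. LL and WL had nearly the same mean, 3.11 each, and the difference from WW was 0.79 in both (SE 0.497, adjusted p = 0.349 for LL and 0.486 for WL, limma).

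Nqo1 and Hmox1 act outside the thiol cycle. Nqo1, the quinone reductase that is the usual marker of NRF2 activity, had the smallest p of the 10 genes between LL and WW. Its probe (chromosome 8, 109912440 to 109912499) read -0.99 and -0.89 in LL, -2.03 and -1.29 in WL, -1.93 and -1.98 in LW, and -1.94 and -2.22 in WW. Both LL mice were above all 6 other arrays. The difference of LL from WW was 1.14 (SE 0.259, adjusted p = 0.0759, limma), a 2.21-fold difference. Under other processing settings it was as low as 0.64. That of LL from WL was 0.72 (SE 0.259, adjusted p = 0.281, limma).

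Hmox1, heme oxygenase 1, opens the heme ring to biliverdin, carbon monoxide and iron. Its probe (chromosome 8, 77624406 to 77624466) read 3.20 and 3.63 in LL, 2.58 and 4.99 in WL, 2.42 and 2.02 in LW, and 2.42 and 2.43 in WW. WL replicate 2 was 2.57 above the WW mean, the largest difference of any of the 10 genes on any array, and WL replicate 1 was 0.16 above it. The LL mice lay between the WL mice, 0.77 and 1.21 above the WW mean. The fitted difference was 0.99 for LL (SE 0.716, adjusted p = 0.405) and 1.36 for WL (SE 0.716, adjusted p = 0.486, limma), with an SE that carries the 2.41 between the WL mice, a gap reached by 1.9% of all genes. A second Hmox1 probe was above background on LL replicate 2 alone.

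**Figure D2:**
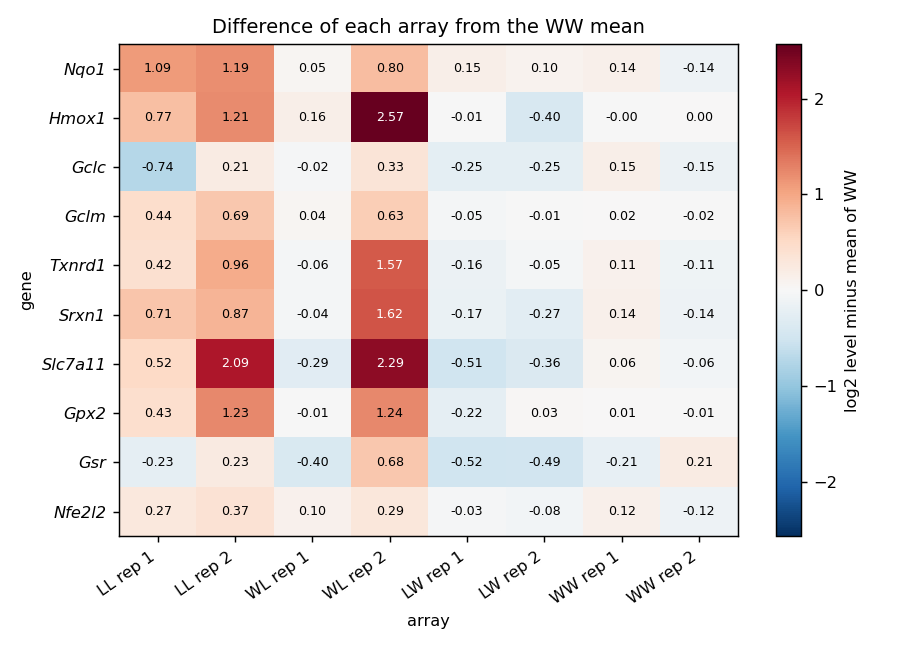
Level of each gene (rows) on each array (columns) minus the mean of the 2 WW arrays, on a log2 scale; red is higher and blue lower. The LL columns and WL replicate 2 are mostly red, with Gclc and Gsr blue in LL replicate 1, and WL replicate 1 lies within 0.40 of the WW mean for every gene.

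By mouse, the count of genes above both WW mice was 8 of 10 in LL replicate 1 (45.5% of all genes), 10 of 10 in LL replicate 2 (44.2%), 2 of 10 in WL replicate 1 (29.8%), 10 of 10 in WL replicate 2 (40.3%) and 1 of 10 in each LW mouse (31% and 25.5%). The genes below both WW mice numbered 8 in LW replicate 1 (33.8% of all genes) and 5 in LW replicate 2 (38.5%), 2 in LL replicate 1 (38.8%), 0 in LL replicate 2 (41.8%), 3 in WL replicate 1 (38.6%) and 0 in WL replicate 2 (48.6%). The median over the 10 genes of the difference from the WW mean was 0.44 and 0.91 in the LL mice, -0.02 and 1.02 in the WL mice and -0.16 in each LW mouse, while the median over all genes lay between -0.08 and 0.04. The 10 genes share mice and arrays, so these counts describe 6 lungs and are not 10 independent readings.

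Between LL and WW, where both sides of the chimera differ in the receptor, 0 of the 10 genes passed at an adjusted p under 0.05 (limma, Benjamini-Hochberg over 25830 genes), against 3.13% of all genes (1.21% higher and 1.92% lower); 2 of the 10, Nqo1 and Gclm, had an unadjusted p under 0.05, against 24.8% of all genes. Fitted differences were above 0 for 9 of the 10, against 52.4% of all genes, with a median of 0.74, against a median of 0.03 over all genes. Much of the error came from the WL pair. Without both WL arrays 4 genes passed, against 32.1% of all genes, with the same fitted differences and smaller errors: Nqo1 (SE 0.127, adjusted p = 0.0046), Srxn1 (SE 0.133, adjusted p = 0.0125), Gclm (SE 0.115, adjusted p = 0.0209) and Hmox1 (SE 0.202, adjusted p = 0.0209), all by limma. On the LL and WW arrays alone 3 passed, Nqo1, Hmox1 and Srxn1, against 24.2%. The share of the 10 genes was thus near that of all genes in both settings.

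Receptor in the recipient alone, WL against WW, gave 0 of 10 genes past the threshold (0.00387% of all genes, limma), and no gene with an unadjusted p under 0.05 against 8.16% of all genes. All 10 fitted differences were above 0, against 45.1% of all genes, with a median of 0.52 against -0.05 over all genes. By mouse, the median difference from the WW mean was -0.02 in WL replicate 1 and 1.02 in WL replicate 2. The mean describes neither WL mouse. Hmox1 and Gclm were higher in both WL mice than in both WW mice (17.5% of all genes were), the other 8 overlapped, and none was lower without overlap (24.5%). Without WL replicate 1, which leaves a single WL mouse assumed to vary like the other groups, 7 genes passed (Hmox1, Srxn1, Txnrd1, Nqo1, Gclm, Slc7a11 and Gpx2) against 37.7% of all genes, and without WL replicate 2 none did.

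Receptor in the marrow alone, LW against WW, gave 0 of 10 (0.0542% of all genes; 0 of 10 and 2.2% at an unadjusted p under 0.05, limma). The fitted differences were below 0 for 9 of the 10 and above 0 for 1, against 44.8% of all genes above 0. They ran from -0.50 for Gsr to 0.12 for Nqo1, with a median of -0.16 against -0.02. The LW and WW mice did not overlap for 5 genes, each lower in LW (Hmox1, Gclc, Srxn1, Slc7a11 and Gsr), against 20.2% of all genes; none was higher without overlap, against 13.7%. For Slc7a11 this fitted value is no bound, since LW was at background. With LW set at the lowest level well above background on its arrays, the WW level was at least 1.08-fold that of LW with this processing.

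**Figure D3:**
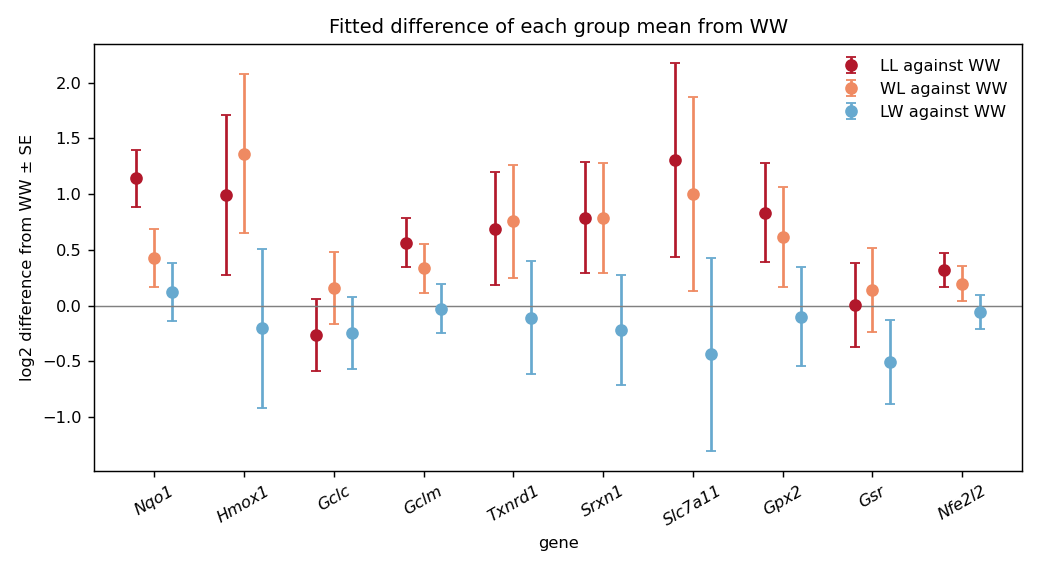
Fitted log2 difference of LL, WL and LW from WW (vertical axis) for each gene (horizontal axis); points are limma estimates and bars their SE. LL and WL estimates lie above 0 for 9 and all 10 of the genes, LW estimates lie near or below 0, and the bars are widest for Slc7a11 and Hmox1, whose WL mice differ most.

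Within LysM-DTR recipients, receptor in the marrow as well (LL against WL) gave 0 of 10 genes against 1.73% of all genes (limma). Of the 10 differences 6 were above 0, against 56.9% of all genes, with a median of 0.06 against 0.05. Nqo1 was the only one with an unadjusted p under 0.05 (14.5% of all genes) and the only one whose LL mice were both above both WL mice (23.5% of all genes); none was below (14.3%). For Srxn1 the direction depended on which WL mouse was kept: it was 0.83 higher in LL without WL replicate 2 (SE 0.163, adjusted p = 0.0286) and -0.83 without WL replicate 1 (SE 0.163, adjusted p = 0.0449, limma). Without WL replicate 2 it passed with Nqo1, 2 of 10 against 19.7% of all genes, and without WL replicate 1 with Hmox1, 2 of 10 against 9.56%.

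With LysM-DTR marrow in both groups, the recipient comparison of LL against LW gave 0 of 10 genes past the threshold (2.8% of all genes), with 2 at an unadjusted p under 0.05 against 25.7% of all genes (limma). LL was above LW without overlap for 9 of 10 genes, all but Gclc, against 40.3% of all genes, and below it for none (31.6%). The differences were 1.02 for Nqo1 (SE 0.259, adjusted p = 0.0941), 1.20 for Hmox1 (SE 0.716, adjusted p = 0.319) and 1.01 for Srxn1 (SE 0.497, adjusted p = 0.248, limma). LL against WW and LL against LW share the LL mice. Without both WL arrays 5 genes passed, Nqo1, Srxn1, Hmox1, Gclm and Txnrd1, against 32.8% of all genes, and on the LL and LW arrays alone 4, without Txnrd1, against 27.6%.

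Averaged over marrow, LysM-DTR recipients against wild-type recipients gave 0 of 10 genes against 1.27% of all genes, although 6 of 10 had an unadjusted p under 0.05 against 31.2% of all genes (limma). The smallest adjusted p was that of Nqo1, 0.0976, at a difference of 0.72 (SE 0.183). Without WL replicate 1, 9 genes passed against 48.4% of all genes, and without WL replicate 2 it was Nqo1 and Srxn1 alone, against 13.3%. The marrow by recipient interaction passed for 0 of 10 genes against 0.0619% of all genes (0 of 10 and 9.13% at an unadjusted p under 0.05, limma), so a dependence of the marrow effect on the recipient was not detected; without WL replicate 2 Srxn1 alone passed, at 1.05, against 8.57%.

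The partners of NRF2 were read from 12 genes, of which 0 passed in LL, WL or LW against WW. In LL, Keap1 was at a difference of 0.16 from WW (SE 0.157), Cul3 at 0.62 (SE 0.199, adjusted p = 0.14, limma) and the repressor Bach1 at -0.64 (SE 0.155, adjusted p = 0.0867). Bach1 was lower in both LL mice, at 0.66 and 0.82, than on the other 6 arrays, where the lowest was 1.08. Of the small MAF genes, which pair with NRF2, Maff was at 2.29 (SE 0.788, adjusted p = 0.157), Mafk at 0.62 and Mafg at 0.20. Maff read 3.54 and 3.28 in LL, 0.86 and 3.54 in WL, 0.70 and 0.96 in LW, and 1.36 and 0.87 in WW, high on the same 3 arrays as Hmox1. The selective autophagy receptor Sqstm1 was at 0.35, the paralogs Nfe2l1 and Nfe2l3 at -0.08 and -0.04, and Btrc, Gsk3b and Rbx1 at -0.25, -0.17 and 0.14.

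Other genes known as NRF2 targets, of conjugation, NADPH supply and export, lay on both sides of 0. Of 35 measured genes 0 passed and 19 lay above 0 in LL against WW, with a median of 0.03, the same as over all genes; in WL 16 lay above 0 (median -0.05) and in LW 18 (median 0.002). The ferritin heavy chain Fth1 had the smallest p, at 0.75 (SE 0.218, adjusted p = 0.122), followed by the glutathione conjugate pump Abcc1 at 0.71 (SE 0.237, adjusted p = 0.151). The range ran from -2.32 for the cytochrome Cyp2a5 to 1.32 for the aldo-keto reductase Akr1b8, with Ugt1a6a at -1.33 and Ephx1 at -1.12. The other 18 genes of glutathione synthesis and turnover had a median of 0.16 in LL and none passed: Cth, which makes cysteine from cystathionine, was at -0.82 (SE 0.2, adjusted p = 0.0869) and Chac2, which degrades glutathione, at 1.30 (SE 0.353, adjusted p = 0.107). None of 23 other genes of peroxide and superoxide removal passed (median 0.05); Selenbp1, a selenium-binding protein, was at 0.91 (SE 0.18, adjusted p = 0.0573) and the methionine sulfoxide reductase Msrb1 at -0.85 (SE 0.195, adjusted p = 0.0778), each by limma.

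ATF4, the factor of the amino acid response, is known to act on Slc7a11 too, and heme on Hmox1. None of 18 genes of the amino acid and ATF4 response passed in LL against WW (median 0.42, 13 above 0) or in WL against WW (median 0.46, 14 above 0). Cth, listed here as well, had the smallest p and Psat1, of serine synthesis, the next, at 2.27 (SE 0.698, adjusted p = 0.133, limma); Psat1 read 2.67 and 2.56 in LL, 0.83 and 3.24 in WL, 0.28 and 0.31 in LW, and 0.41 and 0.29 in WW. Of 18 genes of heme and iron handling 1 passed in LL: Cd163, the macrophage receptor for hemoglobin, was lower in LL than in WW (adjusted p = 0.00738, limma). It was at background on both LL arrays. With LL set at the lowest level well above background on its arrays, Cd163 was at least 9.31-fold lower in LL than in WW with this processing. The list had a median of 0.14.

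Cell markers also differed between these arrays. The summed level of 14 alveolar transitional state markers was 9.53 and 9.55 in LL, 7.90 and 9.85 in WL, and between 7.68 and 7.86 in LW and WW; that of the 10 genes was 6.28 and 6.80 in LL, 6.08 and 7.22 in WL, and between 5.91 and 6.17 in LW and WW. None of those 14 markers passed in LL against WW (median 1.67, 14 above 0); S100a6 was at 2.07 and Krt19 at 2.45. The 14 alveolar type 2 cell markers summed to 9.48 and 9.72 in LL, 11.01 and 9.66 in WL, and between 11.02 and 11.26 in LW and WW, with Lyz2 and Lyz1 passing as lower in LL. Alveolar macrophage markers summed to 5.11 and 6.25 in LL and between 7.04 and 7.68 on the other 6 arrays. In LL against WW 5 of 16 passed as lower, with a median of -1.68 over the list. Among the 5 were Siglecf, which was not well above background on either LL array, and Itgax, Ear2 and Fabp5, at -4.52, -3.34 and -2.77. The other way, 3 lay above 0: Fabp4, Ctsk and Car4. Of these Fabp4 read 3.03 and 4.46 in LL, and 2.84 and 2.94 in WW. Of 16 monocyte and recruited macrophage markers 10 passed as lower in LL and none as higher, led by Cx3cr1, Ms4a7, Ccr2 and C1qc, with a median of -2.80 and 3 above 0. Their summed level was 8.37 and 8.64 in LL and between 7.74 and 8.61 on the other 6 arrays, but Ly6c2 alone made up 81.7 and 84.1% of it in LL. Without Ly6c2 the sum was 5.92 and 5.99 in LL and between 6.77 and 7.44 on the other arrays.

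Neutrophil markers summed to between 7.83 and 8.77 on the 8 arrays with none of 13 passing in LL against WW (Ly6g at 1.57, Cxcr2 at -3.30). Csf3r alone read 7.46 in LL replicate 1, where the sum was 7.96, and 7.35 in WL replicate 1, where it was 7.83. These sums therefore say little of the dimmer markers. Erythroid markers summed to between 7.30 and 9.52 with none of 9 passing (Epor at -0.99). Ahsp was not well above background in LL replicate 1 and, at -0.54, was higher in LL replicate 2 than in either WW mouse. The LL mice lay at opposite ends of the erythroid sums, LL replicate 1 lowest (7.30) and LL replicate 2 highest (9.52), and WL replicate 2 was second lowest (7.39). Club and secretory cell markers summed to 10.68 and 10.76 in LL, 11.05 and 10.17 in WL, and between 11.12 and 11.28 in LW and WW, none of 12 passing in LL against WW (median -0.09, 5 above 0). Agr2 was at 1.82 and Muc5b at 0.70, while Cyp2f2 was at -1.78 and Cbr2 at -1.10. Of 12 alveolar type 1 cell markers 1 passed as higher in LL against WW, Timp3 at 1.27 (median 0.42, 10 above 0). Rtkn2 went the other way, at 3.69 and 2.94 in LL, and 4.03 and 3.99 in WW. In WL against WW the type 1 median was -0.36, with 3 above 0. Of 7 basal cell markers 1 passed as higher in LL, Krt14 at 2.78 (median 0.75, 6 above 0). Trp63 read 3.09 and 2.75 in LL, and 3.09 and 3.25 in WW. The part of these cells in the levels of the 10 genes was not tested.

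**Figure D4:**
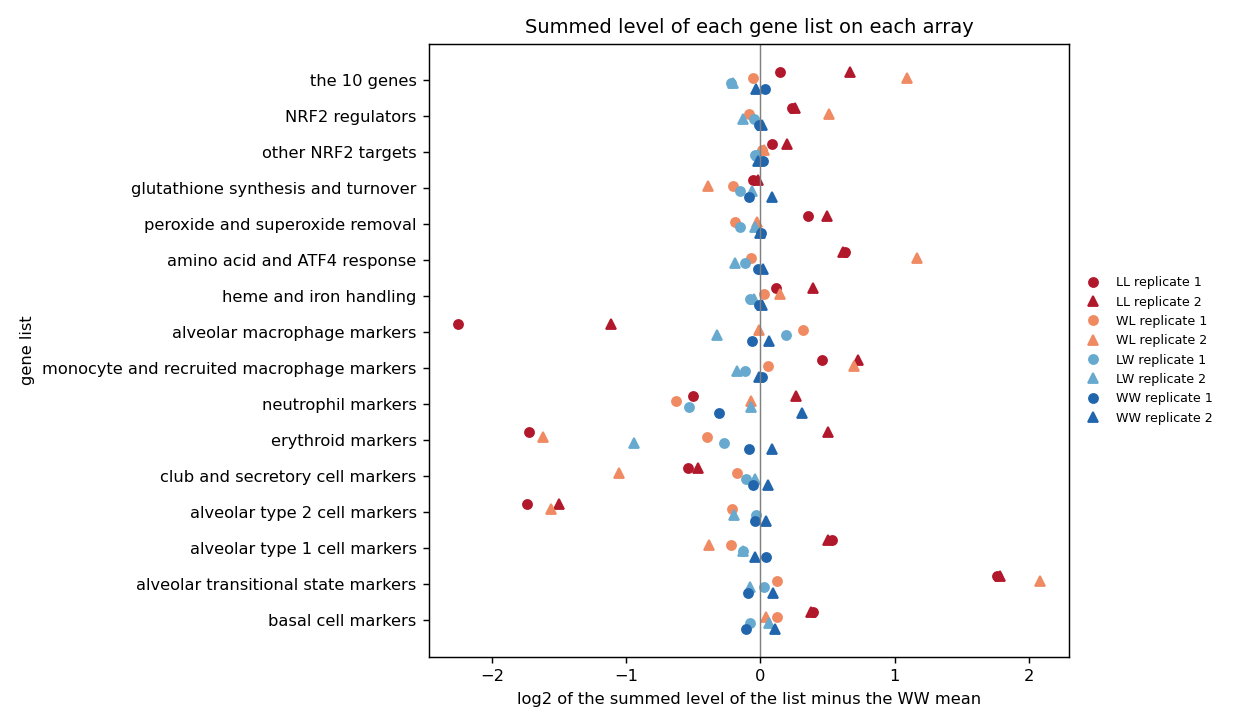
Summed level of each gene list on each array minus the WW mean of that list (horizontal axis, log2), with circles for replicate 1 and triangles for replicate 2. The 10 genes, the amino acid and ATF4 response and the transitional state markers are highest in WL replicate 2, followed by the LL arrays, while alveolar type 2 cell markers are low on those 3 arrays.

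The 3 genes of the 10 with the widest range over the 8 arrays were Hmox1 (2.97), Slc7a11 (2.80) and Srxn1 (1.89); the lowest Slc7a11 levels, on both LW arrays, were not well above background, which limits its range and its likeness to other genes. Among 14796 named genes above background on all 8 arrays, those nearest in pattern, by the root mean square difference of levels centred on each gene's own mean, included the tubulin Tuba1c (0.17) and Mpzl3 (0.18) for Hmox1. For Slc7a11 they were Ifi205 (0.22), Bcl3 (0.25) and the cytokine signalling inhibitor Socs3 (0.26), and for Srxn1 the ribosome assembly factors Nle1 (0.08) and Pno1 (0.09) and the translation factor subunit Eif2s2 (0.09). Each is a likeness over 8 arrays of which 3 carry most of the range, with Tuba1c at 5.34 and 5.72 in LL, 4.55 and 6.80 in WL, and between 3.97 and 4.23 in LW and WW.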

How the data were processed

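Total RNA of 8 lungs was labelled with Cy3 on one-colour Agilent arrays. The deposited array files hold intensity values which, per the file headers, came from Agilent Feature Extraction 11.5.1.1 after background subtraction and detrending within an array, with no scaling between arrays. The series table deposited by the authors holds log2 values. Compared over 56293 probes, these equal the log2 processed signal minus a constant per array, with the 75th percentile at 0 and no centring per gene. Probe positions are on mm9, per the file headers.

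Non-uniform spots were left out (0 to 4 per array), spots of a probe were averaged, and log2 values had the array's 75th percentile subtracted. A probe was kept if it was well above background in each mouse of some group (39595), and 1 was used per gene, the brightest. limma 3.58.1 in R 4.3.3 was fitted to 4 group means on all 8 arrays (4 residual and 2.19 prior degrees of freedom), with Benjamini-Hochberg adjustment. The fit was checked on simulated data with a spread taken from LL, LW and WW. The wider spread of the WL pair was not simulated. The replicates are mice, 2 per group, and the number of arrays limits precision.

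The 10 genes and the lists were chosen with earlier results of these data known. All 10 genes are named, as are all 12 NRF2 regulators; of other lists up to 4 called genes of the largest change, or the 2 of smallest p, in LL against WW, with Lyz2, Hbegf and the 3 nearest patterns of 3 genes, of which 1 is not reported here. Any other gene named was chosen after its values were seen. The labels do not say whether replicate numbers pair the mice. Deviations of mice with the same number were weakly related (r between -0.10 and 0.19), which does not settle it. All 10 symbols matched RefSeq (GRCm38.p6), used for names and promoter windows. Figures used Python 3.11.15.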

Additional observations from a re-analysis of the deposited data

How the results depend on the processing

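None of the 10 genes passed in any comparison under another background correction, quantile normalisation, another percentile, no filter or a stricter filter, averaged probes per gene, the table of the series, another variance model or, chosen after seeing the data, each probe tested by itself. With the replicate number as a block 0 of the 10 genes passed in each of the 7 comparisons, as without it. The labels do not say whether the numbers pair mice. On the compared arrays alone 3 passed in LL against WW (24.2% of all genes) and 4 in LL against LW (27.6%). Without both WL arrays 4 (32.1% of all genes) and 5 (32.8%) passed, because the WL spread then leaves the error. Leaving out 1 array at a time gave 0 to 4 for LL against WW, 0 to 7 for WL against WW, 0 for LW against WW, 0 to 2 for LL against WL, 0 to 5 for LL against LW, 0 to 9 for the recipient average and 0 to 1 for the interaction; every count above 0 came from leaving out a WL array. Of 1283 values of single genes under these settings, 1169 kept direction and side of the threshold, 56 passed, 57 not called in either setting changed sign, and 1 reversed: Srxn1 between LL and WL, at -0.83 without WL replicate 1 (adjusted p = 0.0449, limma) and 0.83 without WL replicate 2. The LL difference of Slc7a11 from WW was 0.33 with normexp background correction, and 0.52 without LL replicate 2 and 2.09 without LL replicate 1; near background in LW, it could not be tested with the stricter filter.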
